A study of Rattus norvegicus with 150 samples.

Results

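Cd74, RT1-Da, RT1-Ba and RT1-Bb are rat genes of the MHC class II antigen presentation pathway. They were taken as a fixed list of 4 Ensembl identifiers, 4 of the 32545 genes in the count table: ENSRNOG00000018735 for Cd74, ENSRNOG00000032844 for RT1-Da, ENSRNOG00000000451 for RT1-Ba and ENSRNOG00000032708 for RT1-Bb. All 4 were found in the table. The symbols came with the list. The rule names the 4 identifiers and uses no measured value, but the genes were chosen with earlier results of these data known.

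MHC class II molecules are pairs of an alpha and a beta chain that carry peptides from ingested proteins to the cell surface, where CD4+ T cells read them. They are made mainly by professional antigen presenting cells (dendritic cells, macrophages and B cells), and resting muscle fibres make little or none of them. Cd74 is the invariant chain, which holds newly made class II pairs together and fills their groove until they reach the compartment where peptide is loaded. RT1-Da is the alpha chain of the RT1.D molecule of the rat, and RT1-Ba and RT1-Bb are the alpha and beta chains of the RT1.B molecule. The family is known for a shared promoter layout of X and Y boxes, on which the coactivator CIITA acts.

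The 4 promoters are shown because these genes are known to be controlled together and their levels are set side by side in what follows. Each stretch runs 5′ to 3′ from 250 bases before to 50 bases after the gene's start, from RefSeq on the build GRCr8. The capitals mark letters of 4 motifs chosen from textbook X and Y boxes.
Cd74, GRCr8 chr18:56526956-56527255, plus strand: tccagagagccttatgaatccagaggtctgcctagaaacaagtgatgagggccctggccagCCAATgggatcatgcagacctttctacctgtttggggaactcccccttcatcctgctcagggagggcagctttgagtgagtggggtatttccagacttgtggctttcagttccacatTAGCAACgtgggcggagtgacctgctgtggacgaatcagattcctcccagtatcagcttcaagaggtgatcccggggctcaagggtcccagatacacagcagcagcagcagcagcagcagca
RT1-Da, GRCr8 chr20:4515165-4515464, plus strand: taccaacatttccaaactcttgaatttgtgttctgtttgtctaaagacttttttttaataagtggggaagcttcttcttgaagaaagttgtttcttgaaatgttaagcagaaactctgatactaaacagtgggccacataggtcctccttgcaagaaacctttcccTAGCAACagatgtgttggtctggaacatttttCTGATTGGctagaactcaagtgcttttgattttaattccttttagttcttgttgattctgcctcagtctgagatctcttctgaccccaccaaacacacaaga
RT1-Ba, GRCr8 chr20:4576807-4577106, plus strand: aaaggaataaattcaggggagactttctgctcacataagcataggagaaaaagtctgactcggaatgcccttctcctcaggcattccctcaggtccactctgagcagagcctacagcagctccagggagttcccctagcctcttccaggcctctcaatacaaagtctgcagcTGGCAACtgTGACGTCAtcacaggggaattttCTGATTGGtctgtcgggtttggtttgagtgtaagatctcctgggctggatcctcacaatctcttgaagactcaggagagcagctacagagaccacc
RT1-Bb, GRCr8 chr20:4604069-4604368, minus strand: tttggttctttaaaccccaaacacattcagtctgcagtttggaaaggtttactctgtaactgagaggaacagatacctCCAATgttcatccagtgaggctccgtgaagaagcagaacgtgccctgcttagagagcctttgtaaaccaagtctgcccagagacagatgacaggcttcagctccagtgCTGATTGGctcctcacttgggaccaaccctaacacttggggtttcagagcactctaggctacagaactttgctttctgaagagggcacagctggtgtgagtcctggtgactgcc
The core of the Y box, CCAAT on either strand, stood in 4 of the 4 promoters and in 37.5% of 33469 promoters of the same length. In Cd74 the match was CCAAT on the gene's own strand at base -189 from the start. RT1-Bb also had CCAAT on its own strand, at base -172. RT1-Da, RT1-Ba and RT1-Bb had the opposite form ATTGG at bases -49, -43 and -61, and Cd74 had no match in that form. The longer form CTGATTGG, which contains the Y box core on the opposite strand, stood in RT1-Da, RT1-Ba and RT1-Bb and in 3.5% of all promoters. Part of the X1 box, TNGCAAC, stood in Cd74, RT1-Da and RT1-Ba and in 10.4% of all promoters. In Cd74 it lay at base -72, after the CCAAT and not before it. The palindrome TGACGTCA of the X2 box stood in RT1-Ba and in 1.83% of all promoters. In RT1-Da and in RT1-Ba 28 bases lay between TNGCAAC and the ATTGG that follows it, and 61 promoters (0.182%) had the 2 motifs in this order at a distance of 10 to 40 bases. These matches describe letters in a window. Each single motif was searched on both strands, and the 2 motifs in order on the gene's own strand only.

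The RNA came from gastrocnemius muscle of male Sprague-Dawley rats, bought at an age of about 30 days, that had metal cylinders implanted in that muscle. The implant was 4 cylinders per rat, 2 per limb, with a diameter of 1 mm and a length of 2 mm. The groups were cobalt (Co), depleted uranium (DU) and a metal with the label P, all at 1, 3, 6 and 12 months after surgery, nickel (Ni) at 1, 3 and 6 months, and tantalum (Ta) at 1, 3, 6 and 12 months. Ta rats had the same surgery and carry an implant too, so every contrast with Ta is one metal against another metal, not against untouched muscle. The design text names lead, Pb, among the sequenced metals and the labels write P, which is taken here to be lead. Of the 19 groups, 17 had 8 libraries and 2 had 7 (Ta at 1 month and Co at 6 months), 150 libraries in all. The labels tie no library to a rat, so the p-values measure the spread between libraries.

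Total counts ran between 12674115 and 21921859 per library, with a median of 15778710. Levels are given as CPM, counts scaled by the library total and a TMM factor, and they are not compared between genes because transcript lengths were not at hand. Outside Co at 1 and 3 months, 4 libraries were picked as standing apart from their own groups, after seeing the data and by no fixed limit. Replicate 2 of DU at 3 months had a median correlation with its group of 0.609, and replicate 1 of Co at 6 months one of 0.876 and a TMM factor of 0.456. Replicates 5 and 6 of DU at 12 months had median correlations of 0.928 and 0.843 and TMM factors of 1.46 and 1.56. The tests of the comparisons that hold these 4 libraries were also run without them. Other libraries had median correlations near that of replicate 5 of DU and were not among the 4. Replicate 8 of Co at 12 months had 0.929, where its group's median was 0.973. Replicates 3 and 8 of Ni at 1 month had 0.917 and 0.913, with TMM factors of 0.713 and 0.732. The table names genes by Ensembl identifier, and 0 of its 32545 identifiers could be paired with a symbol of the reference table, so the other genes of the pathway and the markers of muscle, macrophages, B cells and dendritic cells could not be found in it. The tissue label was therefore not checked against markers. In bulk tissue a larger number of class II cells and more class II RNA per cell cannot be told apart.

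Across the 31 Ta libraries, Cd74 lay between 12.1 and 87.5 CPM with a median of 37.5. RT1-Da lay between 3.84 and 44.4 CPM with a median of 13.9. RT1-Ba lay between 0 and 3.51 CPM with a median of 0.351, and RT1-Bb between 0.202 and 10.2 CPM with a median of 2.30. RT1-Ba was close to the limit of detection: it had fewer than 10 reads in 84 of the 150 libraries and 0 reads in 14, where a floor of 3 counts corresponds to 0.117 to 0.448 CPM (counting error only).

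By median CPM, Co at 3 months came first of the 19 groups for all 4 genes. Co at 1 month took place 2 for Cd74, RT1-Da and RT1-Bb and place 3 for RT1-Ba, after DU at 6 months. For Cd74 these medians were 407 CPM in Co at 3 months and 91.6 CPM in Co at 1 month, and the other 17 groups had medians between 27.5 CPM (Ta at 12 months) and 55.6 CPM (P at 1 month). For RT1-Da the medians were 229 CPM and 51.6 CPM in those Co groups and 7.78 to 21.98 CPM in the other 17. Neighbours in the order overlapped in 18 of 18 steps for each gene, so no step in the order exceeded the spread of its libraries.

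**Figure D1:**
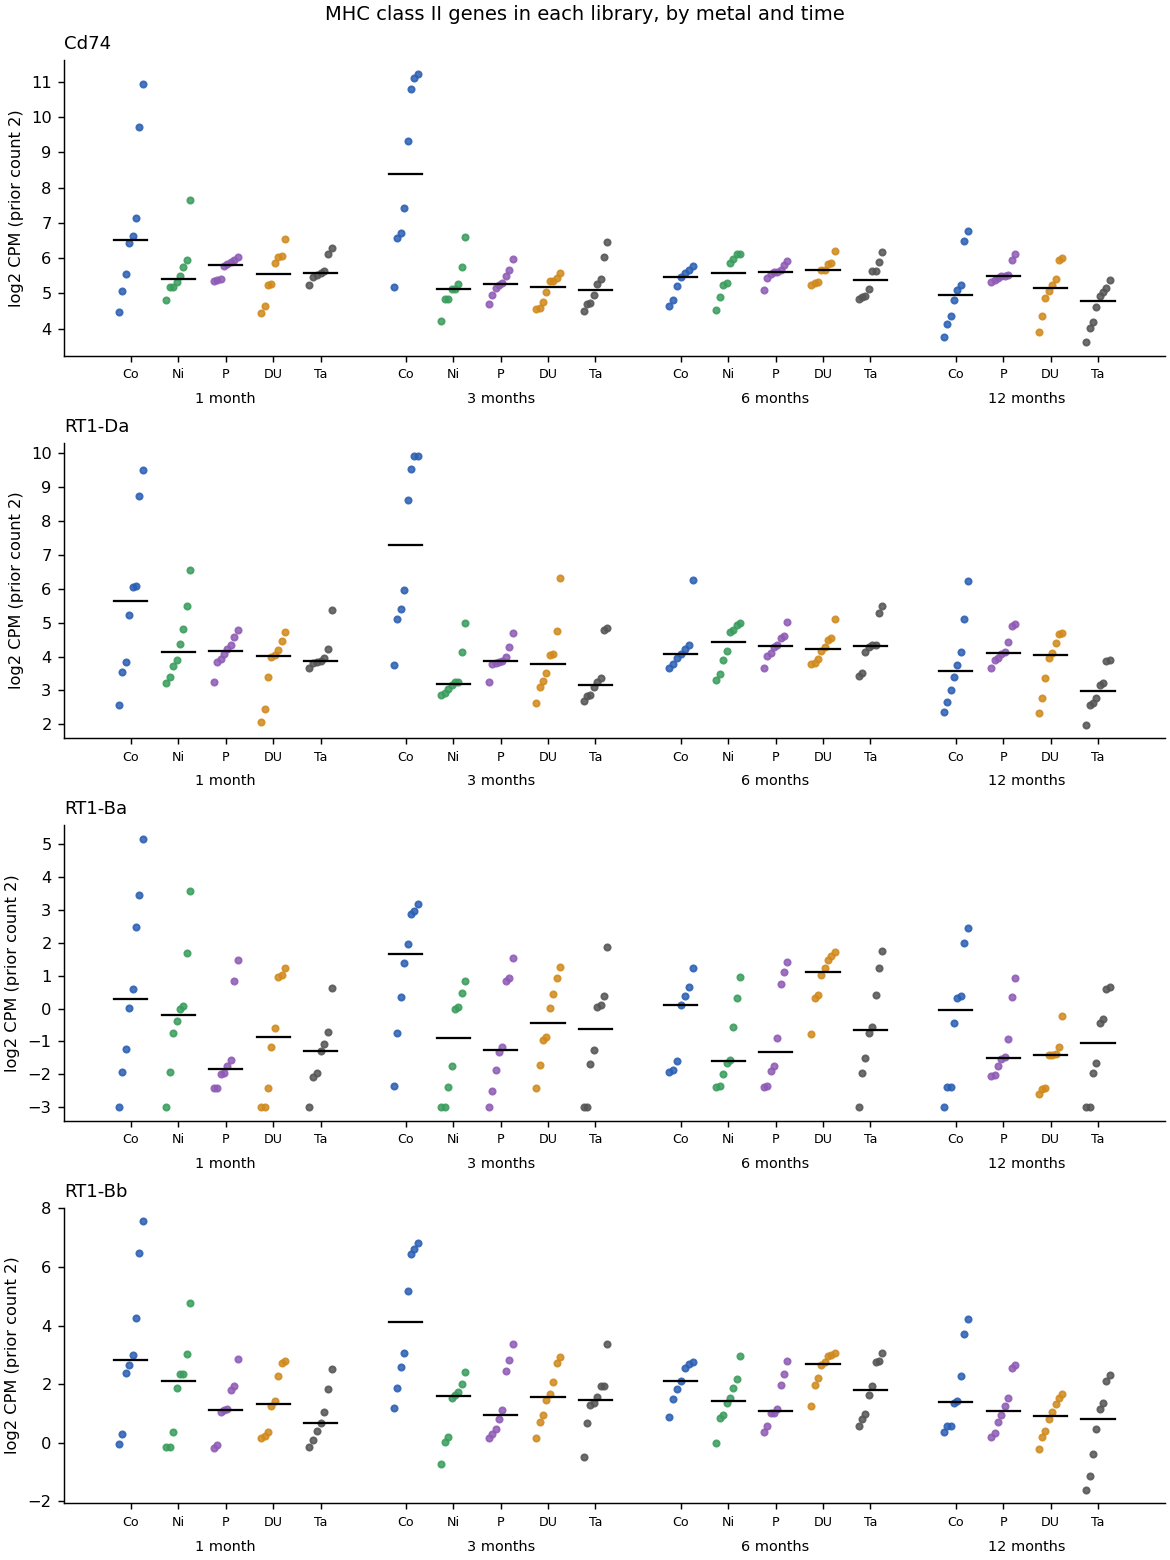
Level of each gene in each of the 150 libraries, as log2 CPM with a prior count of 2 (y axis), by metal and month (x axis); points are libraries and bars are group medians. Co at 1 and 3 months spread over the widest range for Cd74 and RT1-Da, with 4 libraries of Co at 3 months above every Ta library in all 4 genes, while RT1-Ba sits near its floor in many libraries of each metal.

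At 3 months the invariant chain, the RT1.D alpha chain and the RT1.B beta chain were higher in Co than in Ta. Cd74 was at 36.0 CPM in the lowest Co library, 407 CPM at the median and 2410.1 CPM in the highest, against 22.5, 34.4 and 87.5 CPM in Ta. In 7 of 8 Co libraries Cd74 was above every Ta library, and replicate 5 of Co, at 36.0 CPM, lay inside the Ta range. The mean was 929 ± 1024 CPM in Co and 42.4 ± 22.9 CPM in Ta (SD, n = 8 each), and the log2 fold change was 4.47 ± 0.83 (SE, edgeR quasi-likelihood test, adjusted p = 0.0119).

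RT1-Da, the alpha chain of RT1.D, was at 13.5, 229 and 963 CPM (lowest, median, highest) in Co, against 6.28, 8.88 and 28.6 CPM in Ta. Again 7 of 8 Co libraries were above every Ta library. Its log2 fold change was 4.95 ± 0.88 (adjusted p = 0.0119). RT1-Bb was at 2.16, 22.2 and 112 CPM in Co, against 0.590, 2.63 and 10.2 CPM in Ta. Here 4 of 8 Co libraries were above every Ta library and the other 4 lay within the Ta range. The log2 fold change of RT1-Bb was 3.70 ± 0.83 (adjusted p = 0.0164). RT1-Ba, the partner chain of RT1-Bb, was at 0.0697, 3.12 and 9.01 CPM in Co, against 0, 0.595 and 3.51 CPM in Ta. It was above every Ta library in 4 of 8 Co libraries and did not pass the test, with a log2 fold change of 2.17 ± 0.86 (adjusted p = 0.136).

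So 3 of the 4 genes passed in the upward direction and 0 in the downward direction, where 767 of 12429 genes tested (6.17%) rose and 34 (0.274%) fell. The calls were lost in limma voom with library quality weights, which called 0 of the 4 with log2 fold changes of 2.92 for Cd74 and 3.51 for RT1-Da (adjusted p = 0.0930 for each) and 0.0241% of all genes as higher. They held for Cd74, RT1-Da and RT1-Bb in each of the 16 fits that left out 1 library. With the replicate number as a block in edgeR 0 of the 4 passed, where 0.00805% of all genes rose and 0% fell.

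**Figure D2:**
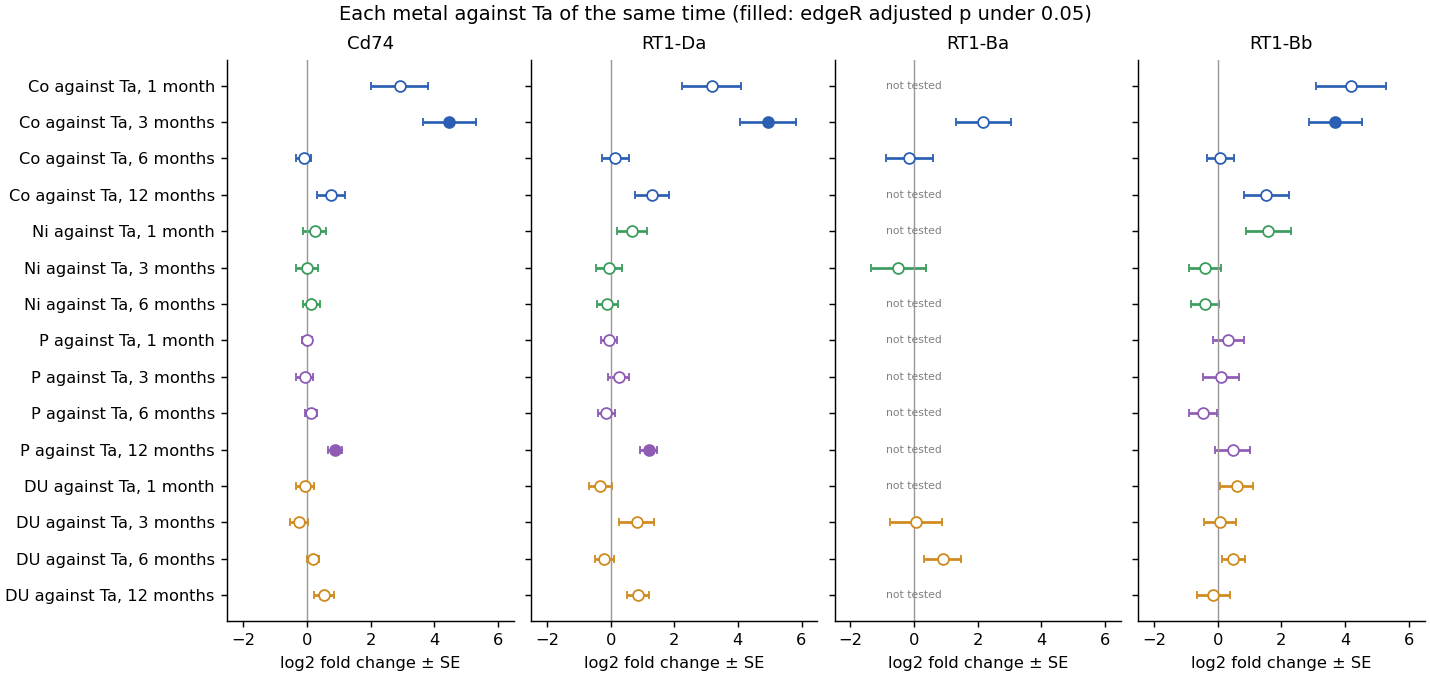
Log2 fold change of each metal against Ta of the same time (x axis, points with SE bars) for the 15 comparisons (y axis) and the 4 genes (panels); filled points passed the edgeR test and open points did not. Co at 1 and 3 months stands at the right for Cd74, RT1-Da and RT1-Bb, P at 12 months is filled for Cd74 and RT1-Da, and RT1-Ba was tested in 5 of the 15 comparisons.

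The rise in Co at 3 months was not shared evenly by its libraries. Cd74 was at 2410.1, 642, 2193 and 1777 CPM in replicates 2, 3, 6 and 8, and RT1-Da at 959.6, 395.5, 963 and 733 CPM. Replicates 1, 4, 5 and 7 had 171, 95.4, 36.0 and 105 CPM of Cd74. The 4 higher libraries were the same ones for each of the 4 genes. On the log2 scale the SD of Cd74 was 2.37 in Co at 3 months and 2.26 in Co at 1 month, against 0.69 in Ta at 3 months and 0.38 in Ta at 1 month. In the 17 groups other than these Co groups the SD of log2 Cd74 lay between 0.25 and 1.08.

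The number of genes at 1 CPM or more moved with these levels. It was 12798, 12482, 12691 and 12675 in Co replicates 2, 3, 6 and 8 at 3 months, and 11720, 11741, 11611 and 11897 in replicates 1, 4, 5 and 7. The 8 Ta libraries of that time had 11132 to 11743. The 10 genes with the most reads took 15.5%, 22.5%, 17.6% and 18.04% of the counts in replicates 2, 3, 6 and 8, and 25.8% to 31.2% in the other 4. TMM factors were 1.91, 1.31, 1.64 and 1.67 in those 4 libraries and 0.986 to 1.12 in the others. The part of this difference in library composition in the class II result was not tested. With library totals in place of TMM factors the log2 fold changes were 5.16 for Cd74 and 5.62 for RT1-Da, and the same 3 genes passed. That scaling moved the median log2 fold change of all genes to 0.38, against -0.03 with TMM factors, and 22.5% of 12429 genes then rose and 0.0965% fell.

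**Figure D3:**
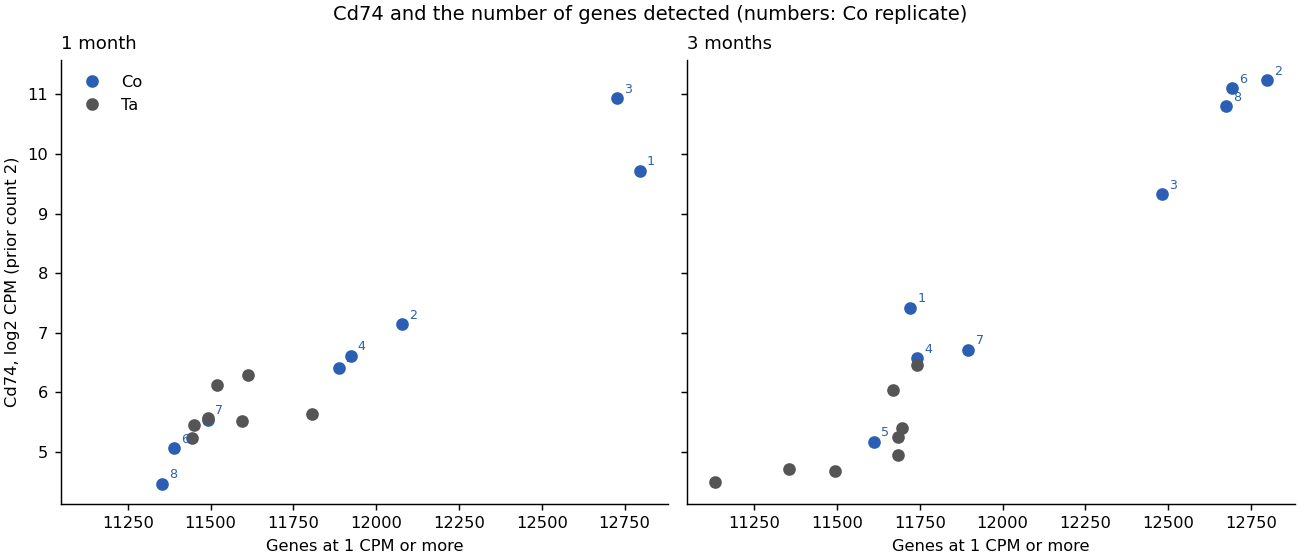
Cd74 as log2 CPM (y axis) against the number of genes at 1 CPM or more (x axis) in Co and Ta libraries at 1 month (left) and 3 months (right); each point is a library and the numbers give the Co replicate. Co replicates 1 and 3 at 1 month and 2, 3, 6 and 8 at 3 months lie to the upper right, with 12482 to 12798 genes detected.

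At 1 month the same direction was seen in part of the Co libraries, and no gene passed the test. Cd74 was at 22.1, 91.6 and 1958 CPM (lowest, median, highest) in Co, against 37.5, 47.2 and 77.9 CPM in Ta. In Co 5 of 8 libraries were above every Ta library and 2 were below every Ta library. RT1-Da was at 5.87, 51.6 and 732 CPM in Co, against 12.5, 14.4 and 41.4 CPM in Ta, and 4 of the 8 Co values exceeded all Ta values while 2 lay below all of them. RT1-Bb was at 0.848, 6.98 and 189 CPM in Co, against 0.768, 1.46 and 5.53 CPM in Ta, with 5 of 8 above.

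Replicate 1 of Co at 1 month had 844 CPM of Cd74, 36.0 CPM of RT1-Ba and 189 CPM of RT1-Bb, the highest RT1-Ba and RT1-Bb values of all 150 libraries. Replicate 3 had 1958 CPM of Cd74 but 10.7 CPM of RT1-Ba and 88.9 CPM of RT1-Bb. The log2 fold changes of Co at 1 month were 2.91 ± 0.89 for Cd74 (adjusted p = 0.157), 3.18 ± 0.93 for RT1-Da (adjusted p = 0.148) and 4.19 ± 1.10 for RT1-Bb (adjusted p = 0.136), and RT1-Ba did not pass the filter on low counts. With edgeR 0 of 12512 genes passed in either direction (0%), and 3 of the 3 class II genes tested had an unadjusted p under 0.05, as did 14.5% of all genes. DESeq2 called RT1-Da and RT1-Bb among 3.7% of genes that rose and 0.472% that fell, voom called none of the 3 and 0% of genes, and a model of all 150 libraries, which shares one estimate of the spread, called all 4, in a setting where it called 10.4% of 14762 genes as higher.

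At 6 months the levels in Co and Ta lay close together. Cd74 averaged 41.0 ± 11.3 CPM in Co (SD, n = 7) and 44.2 ± 16.02 CPM in Ta (SD, n = 8), and RT1-Bb averaged 4.39 ± 1.90 CPM in Co and 4.14 ± 2.69 CPM in Ta. The log2 fold changes of the 4 genes lay between -0.15 and 0.15, with SEs of 0.23 for Cd74, 0.43 for RT1-Da, 0.73 for RT1-Ba and 0.42 for RT1-Bb. RT1-Da was at 76.3 CPM in replicate 1 of Co, the library with the low TMM factor, and its log2 fold change was 0.15 with that library and -0.49 without it, where 0 of the 4 genes and 0% of 12188 genes passed. At this time 0 of the 4 genes and 0 of 12036 genes (0%) passed in edgeR, and 0 of the 4 had an unadjusted p under 0.05. DESeq2 and voom called 0 of the 4. In DESeq2 0.324% of all genes rose and 0.0914% fell, and in voom 3.41% rose and 1.35% fell.

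At 12 months Cd74 was at 13.4, 30.9 and 109 CPM (lowest, median, highest) in Co, against 12.1, 27.5 and 41.3 CPM in Ta. Replicates 1 and 8 of Co, at 89.1 and 109 CPM of Cd74, 34.4 and 75.1 CPM of RT1-Da and 12.8 and 18.6 CPM of RT1-Bb, were above every Ta library of that time and the other 6 Co libraries were not for Cd74 and RT1-Bb. The log2 fold changes were 0.75 ± 0.43 for Cd74, 1.31 ± 0.54 for RT1-Da and 1.52 ± 0.71 for RT1-Bb, with adjusted p values of 0.448, 0.310 and 0.366. None of the 3 genes tested passed, where 0 of 12045 genes (0%) rose and 1 (0.0083%) fell. RT1-Da and RT1-Bb had an unadjusted p under 0.05, as did 13.5% of all genes, and DESeq2 and voom called 0 of the 3. In DESeq2 0.365% of all genes rose and 0.689% fell, and in voom 0.606% rose and 0.772% fell.

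The time course within Co was tested directly. For 3 months over 6 months, with a positive value meaning higher at 3 months, the log2 fold changes were 4.54 ± 0.88 for Cd74 (adjusted p = 0.00643), 4.03 ± 0.94 for RT1-Da (adjusted p = 0.00945) and 3.36 ± 0.82 for RT1-Bb (adjusted p = 0.0117). RT1-Ba was at 2.14 ± 0.79 (adjusted p = 0.0520), and it passed without any 1 of replicates 1, 4 or 5 of the 3-month group or replicate 3 of the 6-month group (adjusted p between 0.0258 and 0.0422). The 3 calls stand against 17.7% of 12487 genes called higher at 3 months and 10.7% called lower. They held in each of the 15 fits that left out 1 library, replicate 1 of the 6-month group among them. With the replicate number as a block 1 of the 4 genes passed, where 6.78% of all genes were higher at 3 months and 4.23% lower.

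The difference between the Co effects at these times, each against its own Ta libraries, was tested too. The log2 fold change of Co against Ta at 3 months minus that at 6 months was 4.59 ± 0.85 for Cd74 (adjusted p = 0.00643), 4.83 ± 0.97 for RT1-Da (adjusted p = 0.00912) and 3.63 ± 0.95 for RT1-Bb (adjusted p = 0.0298). RT1-Ba did not pass, at 2.33 ± 1.20 (adjusted p = 0.290). In this test 420 of 13135 genes (3.2%) had a positive difference and 28 (0.213%) a negative one. The call of RT1-Bb was lost without replicate 3 of Ta at 6 months (adjusted p = 0.0532), replicate 2, 6 or 8 of Co at 3 months (0.0664, 0.0677 and 0.0653) or replicate 2 of Co at 6 months (0.0501). With the replicate number as a block 0 of the 4 genes passed, where 0.0152% of all genes had a positive difference and 0.00761% a negative one.

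For 12 months over 1 month within Co, Cd74 fell by 3.19 ± 0.92 on the log2 scale (adjusted p = 0.0257) and RT1-Da by 2.99 ± 0.96 (adjusted p = 0.0403), among 1304 of 12378 genes (10.5%) that fell and 969 (7.83%) that rose. RT1-Bb and RT1-Ba did not pass, with log2 fold changes of -2.81 and -2.15. With the replicate number as a block 0 of the 4 genes passed, where 4.31% of all genes fell and 7.04% rose. Without replicate 1 or replicate 3 of Co at 1 month, or without replicate 2 of Co at 12 months, 0 of the 4 genes passed (adjusted p of Cd74 0.0528, 0.0769 and 0.0527). Without replicate 1, 3, 4, 5, 6 or 7 of Co at 12 months RT1-Da was lost and 1 gene passed, and without replicate 6 or 8 of Co at 1 month or replicate 8 of Co at 12 months RT1-Bb passed as well, 3 genes in all. The difference of the Co effect between 12 months and 1 month did not pass for any of the 4 genes (edgeR, Cd74 -2.27 ± 0.97, adjusted p = 0.374), where 0 of 13141 genes passed (0%). Cd74 and RT1-Bb had an unadjusted p under 0.05 there, as did 11.3% of all genes, and DESeq2 and voom called 0 of the 4. For this difference DESeq2 called 0.0989% of all genes as positive and 0.814% as negative, and voom called 0%.

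Ni, implanted and sampled in the same way, gave the contrast with Co. At 3 months all 4 genes were lower in Ni than in Co. Cd74 was at 18.5, 34.9 and 96.8 CPM (lowest, median, highest) in Ni, against 36.0, 407 and 2410.1 CPM in Co, and no Ni library was above the Co median. The log2 fold changes of Ni over Co were -4.54 ± 0.84 for Cd74 and -5.08 ± 0.88 for RT1-Da (adjusted p = 0.00656 each), -2.73 ± 0.85 for RT1-Ba (adjusted p = 0.0470) and -4.17 ± 0.85 for RT1-Bb (adjusted p = 0.00832). These 4 of 4 stand against 1424 of 12403 genes (11.5%) that were lower in Ni and 83 (0.669%) that were higher.

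RT1-Ba had the largest adjusted p of the 4 in that contrast. Its call held without replicate 1, 4, 5 or 7 of Co and was lost without each of the other 12 libraries, one at a time (adjusted p between 0.0515 and 0.108), and also with DESeq2's size factors (0.0509) and without the filter on low counts (0.0649). In voom with quality weights 0 of the 4 passed, with log2 fold changes of -2.93 for Cd74 and -3.49 for RT1-Da (adjusted p = 0.0551 each), and 0.00806% of all genes were called as lower. With the replicate number as a block 0 of the 4 passed and 0% of all genes were called. At 1 month 0 of the 4 passed in edgeR with 0% of 12416 genes called. Cd74, RT1-Da and RT1-Bb had an unadjusted p under 0.05 with log2 fold changes between -2.76 and -2.60, where 26.1% of all genes did. DESeq2 called 1 of the 4 among 4.66% of genes that were lower in Ni, voom called 0, and the model of all 150 libraries called 3, where it called 14.5% of 14762 genes as lower. At 6 months 0 of the 3 genes tested passed in edgeR, DESeq2 and voom, and 0 had an unadjusted p under 0.05. In edgeR 0% of 12081 genes were called. In DESeq2 0.952% were higher in Ni and 1.5% lower, and in voom 1.39% were higher and 2.68% lower. Without replicate 1 of Co none of the 4 genes then tested passed either, where 0.115% of 12217 genes were higher in Ni and 0.156% lower.

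Against Ta, no class II gene passed the test in Ni. Cd74 averaged 62.3 ± 56.2, 41.8 ± 24.4 and 48.6 ± 18.4 CPM in Ni at 1, 3 and 6 months (SD, n = 8 each), against 53.1 ± 14.9 (n = 7), 42.4 ± 22.9 and 44.2 ± 16.02 CPM in Ta (n = 8 each). The 1-month mean of Ni included replicate 7, at 199 CPM of Cd74, 93.7 CPM of RT1-Da, 11.8 CPM of RT1-Ba and 27.3 CPM of RT1-Bb, the 1 library outside the Co groups that was above every Ta library in all 4 genes. RT1-Bb was the only Ni value with an unadjusted p under 0.05, with a log2 fold change of 1.59 ± 0.70 at 1 month (adjusted p = 0.404), where 12.3% of all genes had one. In edgeR 0% of 12355, 12114 and 12034 genes were called at 1, 3 and 6 months, and DESeq2 and voom called 0 of the class II genes at each time. In DESeq2 0.00809%, 0.0248% and 0% of all genes rose at these times and 0.0162%, 0.0248% and 0.00831% fell. Voom called 0% at each time. The Ni effect did not pass a test of difference between 6 months and 1 month either, where 0% of 12878 genes were called. RT1-Ba, at -3.47 ± 1.29, and RT1-Bb, at -2.001 ± 0.85, had an unadjusted p under 0.05 there, as did 18.6% of all genes, and DESeq2 and voom called none of the class II genes. For this difference DESeq2 called 0.0932% of all genes as positive and 1.09% as negative, and voom called 0%.

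In muscle with the metal labelled P, the invariant chain and the RT1.D alpha chain were higher than in Ta at 12 months. Cd74 was at 40.1, 44.9 and 69.1 CPM (lowest, median, highest) in P, against 12.1, 27.5 and 41.3 CPM in Ta, and 7 of 8 P libraries were above every Ta library. RT1-Da was at 12.6, 17.2 and 30.8 CPM in P, against 3.84, 7.78 and 14.8 CPM in Ta, again with 7 of 8 P libraries above. The log2 fold changes were 0.89 ± 0.22 for Cd74 (adjusted p = 0.0400) and 1.20 ± 0.27 for RT1-Da (adjusted p = 0.0270). RT1-Bb averaged 2.78 ± 2.01 CPM in P and 2.00 ± 1.75 CPM in Ta and did not pass, with 0.47 ± 0.56 (adjusted p = 0.699), and RT1-Ba was not tested. The 2 of 3 genes that passed stand against 235 of 12179 genes (1.93%) that rose and 55 (0.452%) that fell.

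The P calls lay close to the threshold. Without replicate 1, 3 or 4 of Ta or replicate 1, 2 or 4 of P, 0 genes passed, and without replicate 5 or 8 of Ta or replicate 5, 6 or 7 of P, 1 gene passed. Over the 16 fits the log2 fold change of Cd74 stayed between 0.79 and 1.02 (adjusted p between 0.0204 and 0.0894) and that of RT1-Da between 1.08 and 1.36 (adjusted p between 0.0154 and 0.0635). Both calls were also lost without the filter on low counts (adjusted p = 0.0794 and 0.0582), where 0.895% of 21667 genes rose, and in the model of all 150 libraries (0.573 and 0.449), which called 0.698% of 14762 genes as higher. They were lost too with the replicate number as a block, where 0.328% of all genes rose and 0.0328% fell.

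The levels over time in P and in Ta are set side by side. Cd74 averaged 52.8 ± 9.71, 40.8 ± 11.7, 48.3 ± 7.87 and 48.9 ± 10.6 CPM in P at 1, 3, 6 and 12 months (SD, n = 8 each). In Ta it averaged 53.1 ± 14.9 (n = 7), 42.4 ± 22.9, 44.2 ± 16.02 and 26.4 ± 10.3 CPM at those times (n = 8 each for the last 3). In Ta at 12 months over 1 month both genes fell, with log2 fold changes of -1.01 ± 0.24 for Cd74 (adjusted p = 0.00959) and -1.09 ± 0.31 for RT1-Da (adjusted p = 0.0235). RT1-Bb was at -0.11 ± 0.59 (adjusted p = 0.923). These 2 of 3 stand against 1220 of 12219 genes (9.98%) that fell and 944 (7.73%) that rose.

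The Ta libraries of 12 months enter both this comparison and the one with P, so the 2 results are not independent. The P effect at 12 months did not pass a test of its difference from that at 1 month, with 0.88 ± 0.28 for Cd74 and 1.21 ± 0.39 for RT1-Da (adjusted p = 0.371 each), both with an unadjusted p under 0.05, as had 8.77% of all genes, and 0 of 13015 genes passed (0%), with 0 of the class II genes called by DESeq2 or voom. For this difference DESeq2 called 0.0999% of all genes as positive and 0.00768% as negative. Voom called 0% as positive and 0.00768% as negative. In the model of all 150 libraries the 12-month fall in Ta was not called (adjusted p = 0.195 for Cd74 and 0.250 for RT1-Da), where 4.04% of 14762 genes were called as lower. Relative to 6 months, Ta at 12 months had log2 fold changes of -0.74 ± 0.26 for Cd74 and -1.37 ± 0.33 for RT1-Da, which did not pass in edgeR (adjusted p = 0.171 and 0.0537), where 0.701% of 11991 genes fell and 0.0917% rose. Both had an unadjusted p under 0.05, as did 21% of all genes. DESeq2 and voom each called RT1-Da, among 2.54% of genes that fell in DESeq2 and 1.49% in voom. For 3 and for 6 months against 1 month in Ta, 0 of the class II genes passed in edgeR, DESeq2 and voom, and 0 had an unadjusted p under 0.05. In edgeR 0.00813% of 12304 genes fell and 0% rose at 3 months, and 5.73% of 12247 genes fell and 4.11% rose at 6 months. In DESeq2 0.0569% fell and 0.0325% rose at 3 months, and 8.57% fell and 8.81% rose at 6 months. In voom 2.74% fell and 1.41% rose at 3 months, and 10.1% fell and 7.9% rose at 6 months.

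At 1, 3 and 6 months none of the 3 genes tested passed for P against Ta. The log2 fold changes of Cd74 were -0.01 ± 0.16, -0.07 ± 0.27 and 0.13 ± 0.19 and those of RT1-Da -0.04 ± 0.26, 0.26 ± 0.33 and -0.13 ± 0.28. In edgeR 0 had an unadjusted p under 0.05. There 0% of 12444 genes passed at 1 month and 0% of 12073 at 6 months, and 0.0989% of 12130 rose and 0.239% fell at 3 months. DESeq2 and voom called 0 of the 3 as well. At 3 months 3.12% of all genes rose and 5.19% fell in DESeq2, and 16.6% rose and 16.2% fell in voom. At 1 month 0.193% rose and 0.0643% fell in DESeq2, and at 6 months 0.0248% rose and 0% fell. Voom called 0% at these 1-month and 6-month times. The highest RT1-Bb value in P was 10.2 CPM in a 3-month library, just above the highest Ta library.

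For DU against Ta no class II gene passed in edgeR at any of the 4 times. At 12 months RT1-Da was at 4.89, 16.3 and 25.6 CPM (lowest, median, highest) in DU, against 3.84, 7.78 and 14.8 CPM in Ta, with 5 of 8 DU libraries above every Ta library. Its log2 fold change was 0.86 ± 0.35 (adjusted p = 0.293), with an unadjusted p under 0.05 like 14.7% of all genes. Voom with quality weights called it at 1.22 (adjusted p = 0.0406), among 2.02% of genes that rose and 0.999% that fell, while DESeq2 did not. In DESeq2 1.15% of all genes rose and 0.355% fell. Cd74 averaged 38.0 ± 17.7 CPM in DU and 26.4 ± 10.3 CPM in Ta at 12 months (SD, n = 8 each), with a log2 fold change of 0.53 ± 0.31 (adjusted p = 0.413). In that comparison 0.00826% of 12113 genes rose and 0% fell. Without replicates 5 and 6 of DU, the 2 libraries of that group that stood apart, the log2 fold changes were 1.11 ± 0.32 for RT1-Da (adjusted p = 0.115) and 0.71 ± 0.32 for Cd74 (adjusted p = 0.305). Still no class II gene passed, where 0.904% of 12278 genes rose and 0.13% fell. Without replicate 5 alone 0.164% of 12212 genes rose, and without replicate 6 alone 0.0082% of 12188.

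Of the 4 DU times, the RT1.B pair had its highest medians at 6 months. RT1-Ba was at 0.464, 2.07 and 3.15 CPM (lowest, median, highest) in DU, against 0, 0.512 and 3.25 CPM in Ta, and 7 of 8 DU libraries were above the Ta median. RT1-Bb was at 2.26, 6.35 and 8.26 CPM in DU, against 1.37, 3.33 and 8.15 CPM in Ta. Neither passed, with log2 fold changes of 0.90 ± 0.58 for RT1-Ba (adjusted p = 0.472) and 0.49 ± 0.37 for RT1-Bb (adjusted p = 0.538). At 3 months RT1-Da had a log2 fold change of 0.82 ± 0.55, and of 0.05 without replicate 2, the library that stood apart, which was at 78.9 CPM of RT1-Da and 41.0 CPM of Cd74. Without it 2.12% of 12291 genes rose and 3.94% fell, and 0 of the 4 class II genes passed. With all libraries 0% of 12439, 12158 and 12202 genes were called in edgeR at 1, 3 and 6 months, and 0 of the class II genes had an unadjusted p under 0.05. DESeq2 and voom called 0 of the class II genes at these times, and at 3 months 4.63% of all genes rose and 5.56% fell in DESeq2 and 19.7% rose and 18.7% fell in voom. In DESeq2 0.0322% rose and 0.137% fell at 1 month, and 0.0246% rose and 0.0983% fell at 6 months. Voom called 0% at 1 and at 6 months. The DU effect at 12 months did not pass a test of difference from that at 1 month (RT1-Da 1.18 ± 0.53, adjusted p = 0.329; DESeq2 and voom 0 of 4), where 0.00769% of 13010 genes had a positive and 0% a negative difference. RT1-Da had an unadjusted p under 0.05 there, as did 13.8% of all genes, and without replicates 5 and 6 of DU at 12 months its value was 1.41 ± 0.52 (adjusted p = 0.334). With all libraries DESeq2 called 0.292% of all genes as positive and 0.0538% as negative for this difference. Voom called 0.00769% as positive and 0% as negative.

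Single libraries were also set against the whole range of the 31 Ta libraries. Cd74 was above all of them in 13 of 31 Co libraries, RT1-Da in 11, RT1-Ba in 9 and RT1-Bb in 9. All 4 genes were above in 7 Co libraries: replicates 1 and 3 at 1 month, replicates 2, 3, 6 and 8 at 3 months and replicate 8 at 12 months. In Ni the counts were 2, 2, 1 and 1 of 24 libraries, in P 0, 0, 0 and 1 of 32, and in DU 1, 1, 0 and 0 of 32, in the same order of genes. Without the 4 libraries picked as standing apart RT1-Da was above in 10 of 30 Co libraries and 0 of 29 DU libraries, and the other counts were the same. Replicate 8 of Co at 12 months was not among those 4. The 4 genes together took between 0.00164% and 0.664% of a library's counts, the highest share being that of replicate 2 of Co at 3 months.

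The genes were next compared with each other, as log2 CPM over libraries, which share their depth and TMM factor. Over all 150 libraries Cd74 and RT1-Da had a Pearson r of 0.94 and a Spearman rho of 0.87. Without the Co libraries r was 0.84 (n = 119), and within Co it was 0.98 (n = 31). RT1-Ba and RT1-Bb, the 2 chains of RT1.B, had an r of 0.86 over all libraries, 0.83 without Co and 0.90 within Co. Between these pairs r was lower outside Co than within it: Cd74 and RT1-Bb had an r of 0.46 without Co and 0.93 within Co, and Cd74 and RT1-Ba had 0.26 without Co and 0.76 within Co. The SD of log2 Cd74 was 2.26 and 2.37 in Co at 1 and 3 months and at most 1.08 in the other 17 groups. RT1-Ba had fewer than 10 reads in 84 of the 150 libraries. The part of this wider spread and of these low counts in the difference in r was not tested. With group means subtracted, r over all libraries was 0.92 for Cd74 with RT1-Da and 0.84 for RT1-Ba with RT1-Bb. Leaving out the 2 libraries farthest from the median of the first gene gave 0.92 for Cd74 with RT1-Da and 0.72 for Cd74 with RT1-Bb over all libraries.

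**Figure D4:**
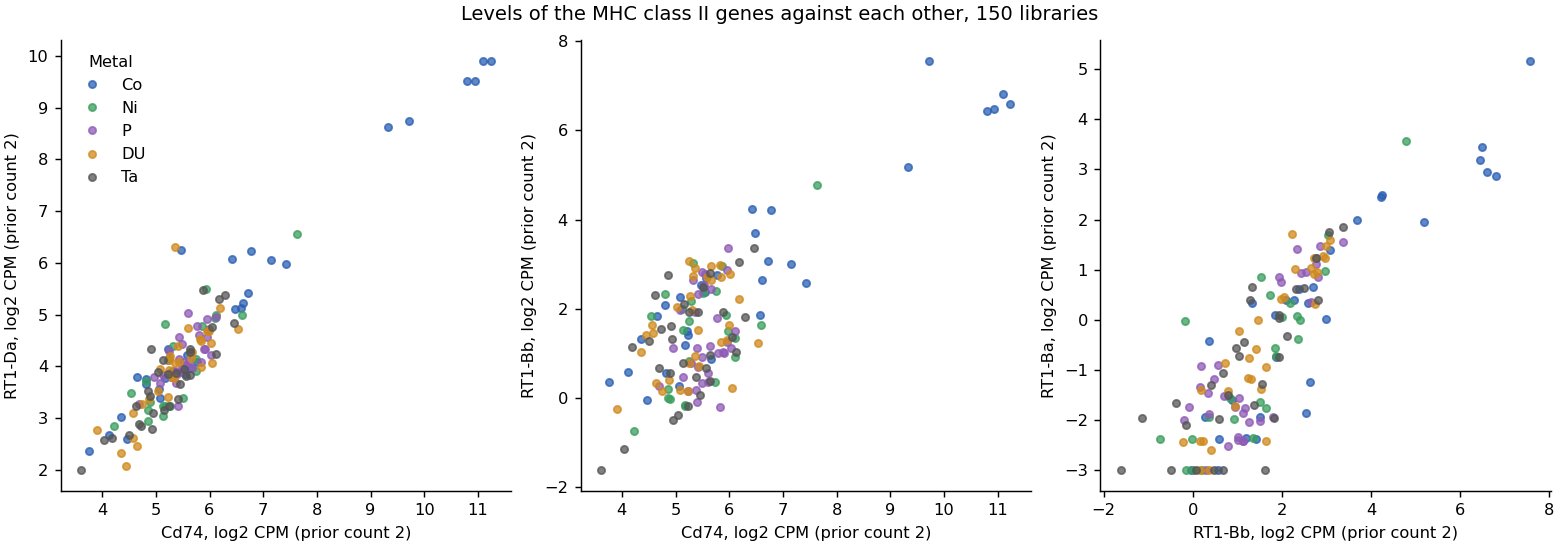
Levels of gene pairs in the 150 libraries as log2 CPM with a prior count of 2 on both axes, coloured by metal: Cd74 and RT1-Da (left), Cd74 and RT1-Bb (middle), RT1-Bb and RT1-Ba (right). The left and right pairs lie along 1 band each (r of 0.94 and 0.86), while in the middle libraries with like Cd74 differ widely in RT1-Bb.

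The same was seen in ratios of reads within a library. Cd74 had 2.67 reads per RT1-Da read at the median, with quartiles of 2.21 and 3.20. The lowest ratios were 0.520 in replicate 2 of DU at 3 months and 0.581 in replicate 1 of Co at 6 months, both among the libraries that stood apart. RT1-Bb reads per 100 Cd74 reads ranged from 1.31 to 23.1 with a median of 5.88. Of the 150 libraries, 45 had 2 to 4 such reads, 24 had 4 to 6, 13 had 6 to 8, 9 had 8 to 10, 19 had 10 to 12 and 16 had 12 to 14. Groups held both low and high libraries: in Ta at 12 months the ratio ran between 1.67 and 19.8, and in P at 3 months between 2.64 and 16.3.

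In Co at 3 months the ratio was narrower, between 3.45 and 7.87, with RT1-Bb and Cd74 high in the same libraries. In Co at 1 month it was 22.5 in replicate 1 and 22.04 in replicate 5 and between 3.28 and 11.02 in the other 6. The highest RT1-Ba and RT1-Bb of the series, in replicate 1, therefore came with a Cd74 level below that of replicate 3. The RT1 genes differ between rat strains, and the labels give no RT1 haplotype of these outbred rats. The effect of sequence differences from the build Rnor_6.0 on these counts was not tested.

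**Figure D5:**
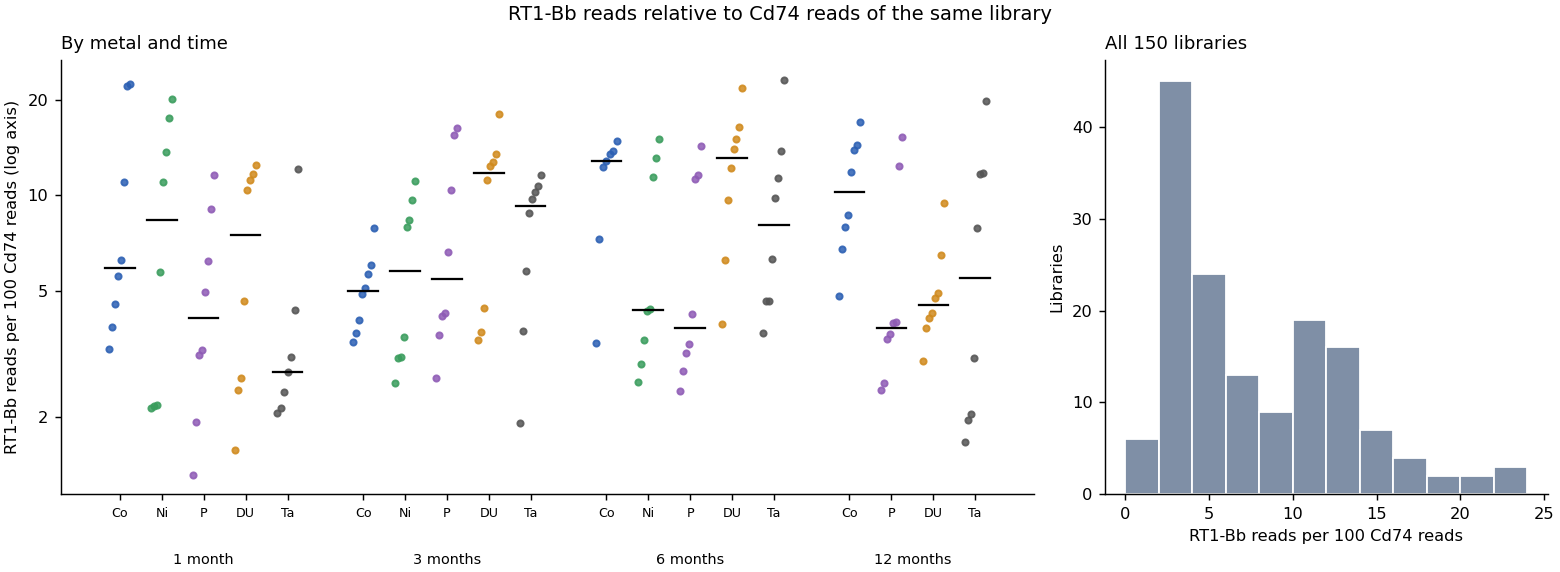
RT1-Bb reads per 100 Cd74 reads of the same library, by metal and month on a log axis (left; points are libraries, bars are medians) and as the number of libraries in bins of 2 (right). The bin from 2 to 4 holds 45 libraries, that from 8 to 10 holds 9 and that from 10 to 12 holds 19.

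Of 12256 genes compared, those most like the mean log2 CPM of the 4 genes over the 150 libraries were ENSRNOG00000000655 and ENSRNOG00000003622, with a Spearman rho of 0.68 and 0.67. With group means subtracted the first were ENSRNOG00000018414 and ENSRNOG00000011971, with 0.70 and 0.68. No gene reached 0.8 by either measure. The 4 genes had equal weight in this mean, and RT1-Ba had fewer than 10 reads in 84 of the 150 libraries. The part of its low counts in these values was not tested. The files do not pair these identifiers with names.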

How the data were processed

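RNA-seq of gastrocnemius muscle was analysed in 150 libraries of 19 groups. Per the labels' protocols, 1000 ng of total RNA went into each stranded library, read as pairs of 100 bases. The authors deposited raw counts per gene. Per the submitters' processing notes, HISAT2 2.0.5, featureCounts 1.5.0-p3 and the build Rnor_6.0 were used. The annotation release and the strand setting are not given in the sources used here. Genes that overlap or resemble each other may share reads, RT1 genes among them.

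A comparison was fitted over all genes in its own 2 groups (4 for a difference of effects), after filterByExpr had removed those with low counts. TMM factors, estimateDisp, glmQLFit and glmQLFTest (both robust) of edgeR 4.0.16 in R 4.3.3 gave two-sided p-values, adjusted by Benjamini-Hochberg over all genes tested, with a threshold of 0.05. The adjusted p values in the text come from this fit where no other tool is named. The SE is the size of the log2 fold change over the square root of F. For levels, TMM factors were taken over all libraries, with a prior count of 2 in log2 CPM. The test was checked on counts simulated with known changes and 1 dispersion per gene shared by both groups. For Co at 3 months it recovered 42%, 84% and 98% of genes with true log2 fold changes of 1, 2 and 4. Of its 139 calls, 6 were false. For P at 12 months it recovered 84%, 100% and 98%. In the data Co at 3 months spread more than Ta, so this check cannot tell how sound the Co calls are.

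The alternatives were DESeq2's size factors, no filter, DESeq2 1.42.0, limma 3.58.1 voom with quality weights, the replicate number as a block, all libraries in 1 model and leaving out each library in turn (9 comparisons). Library totals without TMM factors and leaving out the 4 libraries that stood apart were added after seeing the data. All pairs of libraries of a group differed by more than sampling noise (lowest chi-square per degree of freedom 11.5).

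The 4 genes, the lists and the motifs were chosen with earlier results of these data known. The genes named beside them were the 2 with the highest Spearman rho with their mean log2 CPM, among genes with a mean of at least 1 CPM. The pathway and marker lists could not be matched to identifiers and were not analysed here.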

Additional observations from a re-analysis of the deposited data

Results flagged for a closer look

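In 76 groups of 7 or 8 libraries (4 genes in 19 groups), 19 had a highest library that stood far from the next one by Dixon's ratio. The ratio's usual rate of about 1 in 20 groups is for normally distributed values. Here it was applied to CPM, and each flagged library was the highest of its group, so 19 of 76 cannot be set against that rate. The 4 genes of a library are not independent.

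Replicate 7 of Ni at 1 month stood apart in all 4 genes, with 199 CPM of Cd74, 93.7 CPM of RT1-Da, 11.8 CPM of RT1-Ba and 27.3 CPM of RT1-Bb. Replicate 1 of Co at 1 month stood apart in RT1-Ba (36.0 CPM) and RT1-Bb (189 CPM), and replicate 3 in Cd74 (1958 CPM). Replicate 4 of Ni at 3 months stood apart in Cd74 (96.8 CPM) and RT1-Da (31.7 CPM). Of the 4 genes, RT1-Da was the one that met the ratio in replicate 1 of Co at 6 months (76.3 CPM), replicate 8 of Co at 12 months (75.1 CPM), replicate 2 of DU at 3 months (78.9 CPM), replicate 8 of DU at 6 months (34.7 CPM) and replicate 5 of Ta at 1 month (41.4 CPM). Replicate 4 of Ta at 3 months stood apart in RT1-Ba (3.51 CPM) and RT1-Bb (10.2 CPM). RT1-Ba was also far above its group in replicate 5 of DU at 12 months (0.731 CPM) and replicate 1 of Ta at 1 month (1.43 CPM), and RT1-Bb in replicate 8 of P at 1 month (7.15 CPM).

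The Co effect differed between 3 and 6 months by a test of the difference itself, as log2 fold change at 3 months minus that at 6 months. It was 4.59 for Cd74, 4.83 for RT1-Da and 3.63 for RT1-Bb.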

How the results depend on the processing

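The number of class II genes called moved by over 1.5 times under these alternatives. DESeq2 called 2 for Co at 1 month (0 in edgeR), where 3.7% of all genes rose and 0.472% fell. It called 1 for Ni against Co at 1 month (0), where 2.6% rose and 4.66% fell. For Ta at 12 against 6 months it called 1 (0), where 0.851% rose and 2.54% fell. Voom with quality weights called 0 for Co at 3 months (3), where 0.0241% of all genes rose and 0% fell. For Ni against Co at 3 months it called 0 (4), where 0% rose and 0.00806% fell. It called 1 for DU at 12 months (0), where 2.02% rose and 0.999% fell. For Ta at 12 against 6 months it called 1 (0), where 0.459% rose and 1.49% fell. It called 1 for Co at 12 against 1 month (2), where 13.2% rose and 13.7% fell. Without the filter 0 were called for P at 12 months (2), where 0.895% of all genes rose and 0.138% fell. For Co at 12 against 1 month 0 were called (2), where 3.69% rose and 5.52% fell. The model of all 150 libraries called 4 for Co at 1 month (0), where 1529 of 14762 genes rose and 168 fell. For Ni against Co at 1 month it called 3 (0), where 1299 rose and 2135 fell. It called 0 for P at 12 months (2), where 103 rose and 11 fell. For Ta at 12 against 1 month it called 0 (2), where 295 rose and 596 fell. Leaving out each library in turn gave 0 to 2 for P at 12 months and 0 to 3 for Co at 12 against 1 month. The cause was not tested.

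In no comparison was the correlation over 0.1 for every pair of libraries with the same replicate number. It was for 5 of 8 pairs for Co at 3 months, where 3 of 8 libraries correlated best with their own number. So strict a rule cannot show that the numbers carry no pairing. At 3 months the median correlation was 0.113 for Co and 0.252 for P, beside 0.0110 and -0.0544 between libraries with different numbers. For P at 12 months it was -0.205, beside 0.0153. With the number as a block 0 class II genes were called for Co at 3 months, where 0.00805% of all genes rose and 0% fell. The same count of 0 was found for Ni against Co at 3 months (0% and 0%) and P at 12 months (0.328% and 0.0328%). It was also 0 for Co at 12 against 1 month (7.04% and 4.31%) and the difference of the Co effect between 3 and 6 months (0.0152% and 0.00761%). For Co at 3 against 6 months 1 class II gene was called, where 6.78% of all genes rose and 4.23% fell.

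Of the single-gene values under alternatives other than leaving out each library, 655 kept direction and side of the threshold, 34 lost the call, 16 gained it and 34 changed sign. The 655 include values that edgeR had not called and that stayed uncalled, so they do not measure how firm the calls were. Only a value that edgeR had called could lose its call. None of those that changed sign was called. In voom they were, for Co at 6 months, RT1-Da -0.37 and RT1-Bb -0.0023; for Ni at 3 months, Cd74 0.083, RT1-Da 0.11, RT1-Ba 0.68 and RT1-Bb 0.18; for P, Cd74 0.19 and RT1-Da 0.19 at 1 month and Cd74 0.24 at 3 months; for DU, Cd74 0.032 at 1 month and RT1-Bb 0.48 at 12 months; and for Ni against Co, RT1-Ba 0.12 at 1 month and RT1-Da 0.33 at 6 months. In the replicate block they were RT1-Da -0.10 and RT1-Ba 0.083 for Co at 6 months, Cd74 -0.30 and RT1-Da 0.0012 for Ni at 1 and 3 months, RT1-Da 0.011 and Cd74 0.066 for P at 1 and 3 months, RT1-Bb 0.25 for DU at 12 months, RT1-Da 0.082 for Ni against Co at 6 months and Cd74 0.32 for the Ni effect at 6 against 1 month. With library totals they were RT1-Da -0.080 for Co, 0.11 for Ni, 0.043 for DU and 0.19 for Ni against Co, all at 6 months, RT1-Ba -0.16 and RT1-Bb -0.11 for DU at 3 months, RT1-Bb 0.13 for DU at 12 months and Cd74 0.042 for the Ni effect. Without replicate 2 of DU at 3 months RT1-Ba was -0.34 and RT1-Bb -0.22, and without replicate 1 of Co at 6 months RT1-Da was -0.49, and 0.39 for Ni against Co. RT1-Bb in Ta at 12 against 1 month lay between -0.43 and 0.32 when 1 library was left out.

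RT1-Ba, with fewer than 10 reads in 84 of the 150 libraries, passed the filter in 5 of the 15 comparisons with Ta. The reason for its low counts was not tested.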
